A study of Cricetulus griseus with 16 samples.

Results

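The cytosolic HSP70 and HSP110 chaperones were followed in CHO cells, an established line from Chinese hamster ovary (ATCC CCL-61), at rest and during heat. The 7 genes were taken from the 20824 genes of the count table by name or identifier. They were the gene listed as ENSCGRG00001001109, which the study names HSPA1A/HSPA1B, the gene listed as ENSCGRG00001018983, which it names HSPA8, and Hsph1, Hspa4, Hspa4l, Hspa14 and Hspa2. The table gives the first 2 by identifier only, and they are called HSPA1A/HSPA1B and HSPA8 on the strength of the study's naming. RNA came from 16 cultures of the same line, 4 kept at 37 °C, 4 held 1 h at 40 °C, 4 held 6 h at 40 °C and 4 held 1 h at 42.5 °C, with replicates A to D per group. The labels call them biological repeats and name no drug, transgene or recovery period at 37 °C.

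HSP70 proteins bind exposed stretches of unfolded polypeptide and release them in a cycle driven by ATP. J-domain proteins (HSP40) deliver the client and start ATP hydrolysis, and nucleotide exchange factors, among them the HSP110 proteins, open the cycle again by releasing ADP. Cells make some HSP70 at all times, chiefly HSPA8, and make more, chiefly HSPA1A and HSPA1B, when heat activates the transcription factor HSF1.

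Total counts were between 10504192 and 14668365 per library, and 3 counts, taken as the floor of detection for counting error only, corresponded to between 0.204 and 0.296 CPM, the counts of a gene relative to the total of its library after scaling by the TMM method. The study left 1 control library out of its analysis. The counts that it lists for 920 genes were identical to the deposited counts in 15 libraries and in at most 36 genes in 37 °C replicate D, so replicate D was kept out of the fits and is given by itself. Vim and Fn1, markers of mesenchymal cells, were at 1820 to 2680 and at 210 to 435 CPM over all 16 libraries, whereas Col1a1 and Col1a2 were at most 0.353 CPM. The granulosa cell genes Foxl2, Fshr and Cyp19a1 had 0 counts in every library, and Amh was at 1.9 to 7.12 CPM. Leukocyte and endothelial markers summed to at most 0.326 CPM and the epithelial markers found to at most 4.14 CPM. In these bulk samples fewer cells that express a gene and less of its RNA per cell cannot be told apart.

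Each heated group was compared with 37 °C to ask which chaperone transcripts respond to mild and to moderate heat. The heated groups were also compared with each other, for duration at 40 °C and for temperature at 1 h. The comparison of 1 h at 42.5 °C with 6 h at 40 °C changed both and separates neither. The labels give no time for the controls, so none is known to match 6 h. Differentially expressed genes (DEGs) were those with an adjusted p under 0.05 in edgeR's quasi-likelihood test of the 2 groups that also changed by 1.5-fold or more. Of the 7 genes, 6 passed the filter on low counts in every comparison and Hspa4l passed it in none. HSPA1A/HSPA1B, HSPA8 and Hsph1 were higher DEGs in all 3 heated groups, and Hspa4, Hspa14 and Hspa2 were DEGs in none of them. After 1 h at 40 °C the 3 calls compared with 0.276% of all tested genes called higher, after 6 h at 40 °C with 1.45% and at 42.5 °C with 2.83%. The median log2 fold change of the 6 tested genes was 0.46 after 1 h at 40 °C, 0.82 after 6 h at 40 °C and 0.88 at 42.5 °C, and the medians over all tested genes lay within 0.01 of 0.

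**Figure D1:**
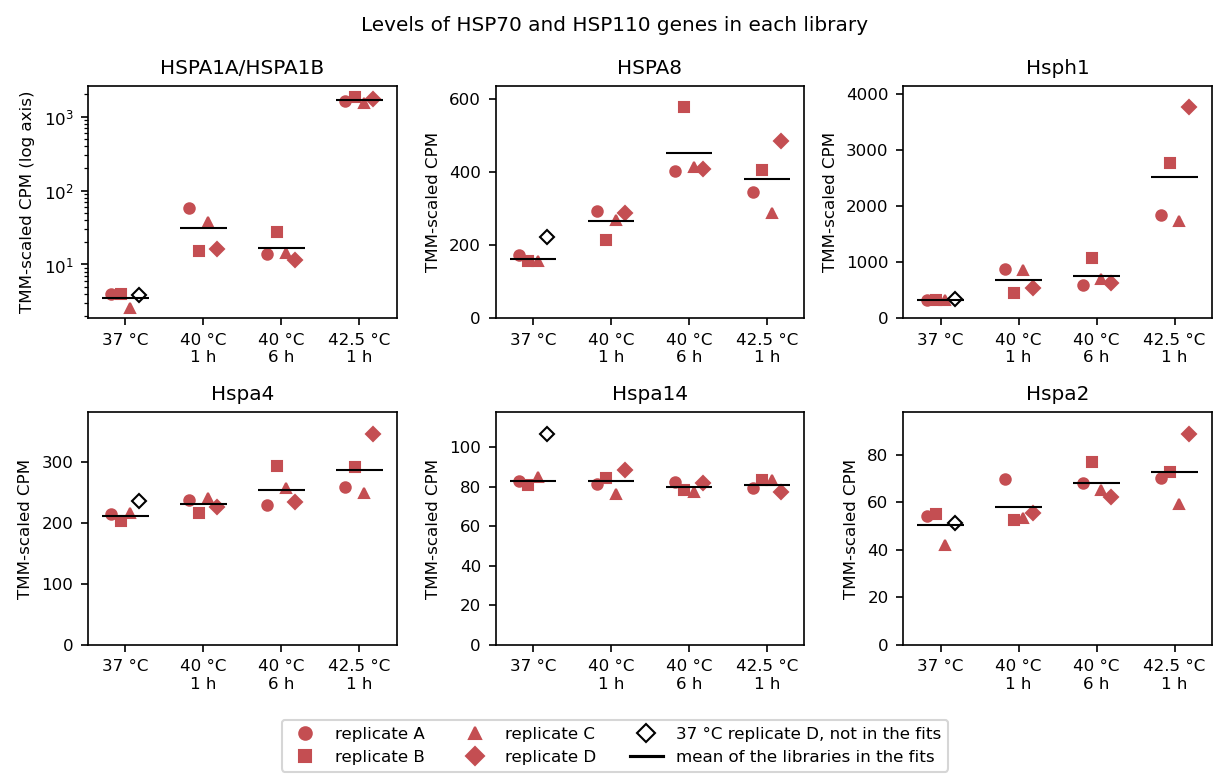
Level of the 6 tested genes in each library as TMM-scaled CPM, with a log axis for HSPA1A/HSPA1B and linear axes from 0 for the others. Symbols mark replicates A to D, the open diamond is 37 °C replicate D, and bars are means over the libraries in the fits. HSPA1A/HSPA1B was at 1540 CPM or more in all 4 libraries at 42.5 °C, while Hspa14 stayed between 76.3 and 88.7 CPM in the libraries in the fits.

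HSPA1A/HSPA1B is the heat-inducible cytosolic HSP70. It was low at rest but above the floor of 3 counts. The controls had 4 CPM in replicate A, 4.01 in B and 2.59 in C (57, 55 and 30 counts). The left-out replicate D had 3.83 CPM. After 1 h at 40 °C HSPA1A/HSPA1B was at 57.5 CPM in replicate A, 15 in B, 37 in C and 16.3 in D. All 4 libraries lay above every control library, and replicates A and C were well above B and D. On the log2 scale it rose by 3.14 (SE 0.47, adjusted p = 0.00324), or 8.85-fold with a 95% interval of 4.43 to 17.7. After 6 h at 40 °C it was at 13.7, 27.2, 14.2 and 11.5 CPM in replicates A to D. These libraries again lay above all controls and overlapped with those of 1 h. The rise over 37 °C was 2.21 (SE 0.27, adjusted p = 2.1e-05), or 4.64-fold.

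After 1 h at 42.5 °C HSPA1A/HSPA1B reached 1620 CPM in replicate A, 1870 in B, 1540 in C and 1760 in D. The 4 libraries differed from each other by at most 1.22-fold and stood apart from every other library. The rise was 8.88 (SE 0.11, adjusted p = 3.71e-18), or 470-fold with an interval of 401 to 551, and it was the highest fold change of 10470 tested genes. The spread among cultures was widest after 1 h at 40 °C, with a coefficient of variation of 63.9%, against 42.7% after 6 h at 40 °C and 8.67% at 42.5 °C. HSPA1A and HSPA1B are near-identical neighbours in mammals, so the counts cannot be divided between them.

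HSPA8 (HSC70) is the constitutive cytosolic HSP70. Its level was 174, 156 and 156 CPM in 37 °C replicates A to C, and 223 CPM in replicate D. It was 293, 213, 269 and 289 CPM in replicates A to D after 1 h at 40 °C, all above the controls in the fit, with replicate B below the left-out control. The rise was 0.72 (SE 0.09, adjusted p = 0.000524), or 1.65-fold. After 6 h at 40 °C the libraries were at 403, 577, 413 and 409 CPM, all above those of 1 h, and replicate B stood above the rest. The rise over 37 °C was 1.47 (SE 0.10, adjusted p = 3.8e-08), or 2.78-fold. At 42.5 °C they were at 344, 404, 289 and 485 CPM, overlapping with both groups at 40 °C, and the rise was 1.23 (SE 0.12, adjusted p = 1.27e-06), or 2.34-fold.

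The order of the groups therefore differed between these HSP70 genes. HSPA8 had its highest mean after 6 h at 40 °C (451 ± 84.2 CPM, SD, n = 4), followed by 42.5 °C (380 ± 83.8), 1 h at 40 °C (266 ± 36.9) and 37 °C (162 ± 10.6, n = 3). Its levels after 6 h at 40 °C and at 42.5 °C did not pass the test against each other, with a log2 difference of -0.25 (95% interval -0.51 to 0.01, adjusted p = 0.108) for 42.5 °C against 6 h at 40 °C. HSPA1A/HSPA1B was highest at 42.5 °C (1700 ± 147 CPM), followed by 1 h at 40 °C (31.4 ± 20.1), 6 h at 40 °C (16.6 ± 7.1) and 37 °C (3.53 ± 0.819). The groups at 40 °C did not pass the test against each other (adjusted p = 0.0686).

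A further gene listed by identifier only, ENSCGRG00001004990, followed HSPA8 more closely than any other of 10578 genes, with Pearson's r of 0.989 over 15 libraries. It held 8.2 to 9.03 times as many counts as HSPA8 in the libraries at 37 and 40 °C that were in the fits, 7.23 times as many in 37 °C replicate D, and 7.43 to 7.96 times as many in those at 42.5 °C. Its log2 fold changes were 0.68, 1.45 and 1.04 after 1 h at 40 °C, after 6 h at 40 °C and at 42.5 °C, and it was a DEG in each, at 1 h of 40 °C only without 37 °C replicate D. Between 42.5 °C and 6 h at 40 °C its log2 difference was -0.42 (adjusted p = 0.0124), short of 1.5-fold. The table gives it no name. HSPA8 has many processed copies in mammalian genomes, and the sources used here do not say how reads that map to several places were handled, so the level of HSPA8 is uncertain where its copies share reads. Which of the pair is the expressed HSPA8 gene and which a copy was not settled here, and ENSCGRG00001018983, with the fewer counts, may itself be the copy. Every value given for HSPA8 is that of ENSCGRG00001018983.

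Hsph1 encodes HSP105, an HSP110 chaperone that serves as exchange factor for HSP70. It was even among controls, at 328, 323 and 320 CPM in replicates A to C and 340 in replicate D. After 1 h at 40 °C it was at 874, 449, 860 and 549 CPM in replicates A to D. All were above the controls, with A and C again above B and D, and the rise was 1.08 (SE 0.17, adjusted p = 0.00441), or 2.11-fold. After 6 h at 40 °C it was at 597, 1070, 705 and 636 CPM, and the rise over 37 °C was 1.21 (SE 0.14, adjusted p = 1.01e-05), or 2.32-fold. The groups at 40 °C overlapped and were not separated by the test (log2 difference 0.14, interval -0.25 to 0.53, adjusted p = 0.648). At 42.5 °C Hsph1 was at 1840, 2770, 1730 and 3770 CPM, above every other library, with a rise of 2.96 (SE 0.20, adjusted p = 4.19e-08), or 7.77-fold.

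Hspa4 (APG-2) is a further HSP110 protein. It was at 215, 203 and 216 CPM in the controls and 236 in replicate D. The libraries after 1 h at 40 °C, at 216 to 241 CPM, overlapped with the controls, and the log2 difference of 0.12 did not pass the test (adjusted p = 0.223). After 6 h at 40 °C it was at 229, 294, 258 and 234 CPM, and at 42.5 °C at 259, 292, 249 and 347 CPM, all above the 3 controls. At 6 h the difference was 0.26 (SE 0.07, adjusted p = 0.0096), and at 42.5 °C it was 0.43 (SE 0.08, adjusted p = 0.000634), neither of which reached 1.5-fold. Replicates A and D of 6 h lay below the left-out control. At adjusted p under 0.05 alone 14.7% of all tested genes were higher after 6 h at 40 °C and 20.8% at 42.5 °C.

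Hspa2 is an HSP70 best known from the male germ line. It was measurable in this line at 54.4, 54.9 and 42 CPM in the controls and 51.2 in replicate D. After 1 h at 40 °C it was between 52.7 and 69.7 CPM, which overlapped with the controls (log2 difference 0.20, adjusted p = 0.383). It was between 62.1 and 76.9 CPM after 6 h at 40 °C and between 59.4 and 89 CPM at 42.5 °C, with all 8 libraries above all controls. These differences were 0.43 (SE 0.09, adjusted p = 0.00158) and 0.52 (SE 0.11, adjusted p = 0.0013), or 1.34-fold and 1.44-fold. Without 37 °C replicate B or without 42.5 °C replicate C the value at 42.5 °C passed 1.5-fold, at 0.59 and 0.61.

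Hspa14 encodes HSP70L1, an HSP70 relative that works with a J-domain protein at the ribosome. It was at 83.1, 81.1 and 84.8 CPM in the controls and 107 in replicate D, and its heated libraries ran from 76.3 to 88.7 CPM. Every heated group overlapped with the controls. The 95% intervals against 37 °C were 0.922 to 1.08-fold after 1 h at 40 °C, 0.895 to 1.04-fold after 6 h at 40 °C and 0.904 to 1.04-fold at 42.5 °C, so a change of 1.5-fold lay outside all of them.

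Hspa4l (APG-1), the remaining HSP110 gene, was close to the limit of detection. Its counts were 0, 0, 2 and 0 in 37 °C replicates A to D, 2, 1, 1 and 0 after 1 h at 40 °C, 0, 0, 0 and 2 after 6 h at 40 °C, and 4, 3, 5 and 1 at 42.5 °C. No fold change is given against groups at or under the floor of 3 counts per library. With no filter the comparison of 42.5 °C with 37 °C gave an adjusted p of 0.0598, and that with 6 h at 40 °C gave 0.0233.

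**Figure D2:**
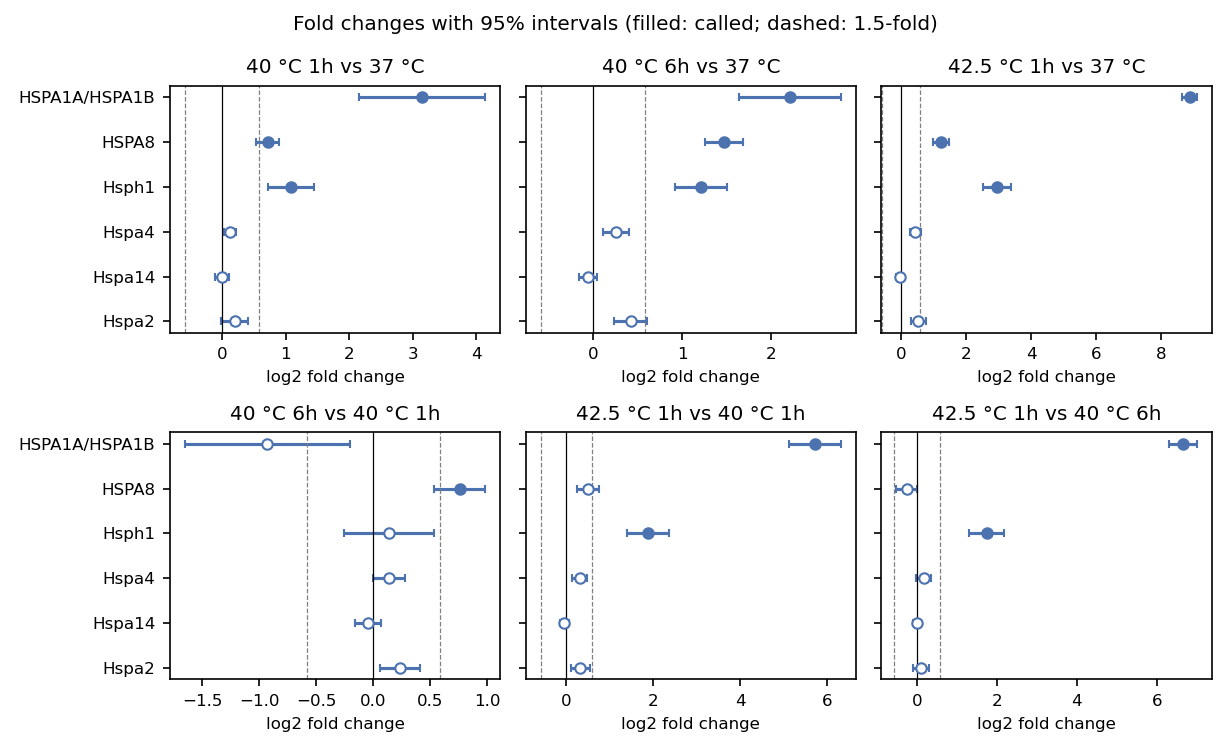
Log2 fold change of the 6 tested genes in the 6 comparisons, with 95% intervals. Each panel has its own axis. Filled circles are DEGs and dashed lines mark a fold change of 1.5. HSPA8 was the only DEG of the 6 between 6 h and 1 h at 40 °C, and HSPA1A/HSPA1B and Hsph1 were the DEGs of both comparisons of 42.5 °C with 40 °C.

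The heated groups were then set against each other. Between 6 h and 1 h at 40 °C, 1 of the 6 genes was a higher DEG, against 0.556% of all tested genes. HSPA8 rose by 0.76 (SE 0.11, adjusted p = 0.000203), and its 6 h libraries lay above all 1 h libraries. HSPA1A/HSPA1B had a log2 difference of -0.93 (interval -1.65 to -0.20), which did not pass the test. Without replicate B of 1 h at 40 °C, without replicate D of that group or without replicate B of 6 h at 40 °C it did pass, at -1.16, -1.14 and -1.27, whereas without replicate A of 1 h at 40 °C it was -0.44 (adjusted p = 0.321). Hspa4 and Hspa2 had differences of 0.14 (adjusted p = 0.158) and 0.23 (adjusted p = 0.0629).

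Between 42.5 and 40 °C at 1 h, 2 of the 6 genes were higher DEGs, against 1.75% of all tested genes. HSPA1A/HSPA1B was 53.1-fold higher (log2 difference 5.73, SE 0.28, adjusted p = 1.02e-09) and Hsph1 3.68-fold higher (1.88, SE 0.23, adjusted p = 1.41e-05). HSPA8 was 1.42-fold higher (0.51, SE 0.12, adjusted p = 0.00415), short of 1.5-fold, and without 42.5 °C replicate C it was a DEG at 0.63. Hspa4 and Hspa2 differed by 0.31 (adjusted p = 0.00617) and 0.33 (adjusted p = 0.0218), where 16.4% of all tested genes were higher at adjusted p under 0.05 alone.

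Against 6 h at 40 °C, 2 genes were again higher DEGs at 42.5 °C, and 2.53% of all tested genes were. HSPA1A/HSPA1B was 101-fold higher (6.66, SE 0.16, adjusted p = 9.68e-15) and Hsph1 3.34-fold higher (1.74, SE 0.20, adjusted p = 3.13e-06). Hspa4 (0.17, adjusted p = 0.118), Hspa2 (0.10, adjusted p = 0.409) and Hspa14 (0.01, adjusted p = 0.905) did not pass the test.

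With 37 °C replicate D included, none of the 7 genes was a DEG after 1 h at 40 °C. The log2 fold change of HSPA1A/HSPA1B was then 3.12 (adjusted p = 0.0824, where the alternatives ran from 3.46e-10 to 0.0824), that of Hsph1 1.06 (adjusted p = 0.127, range 2.15e-09 to 0.127) and that of HSPA8 0.59 (adjusted p = 0.242, range 9.28e-11 to 0.242). The biological coefficient of variation common to all genes was 0.11 with replicate D and 0.049 without it. After 6 h at 40 °C and at 42.5 °C the same 3 genes were DEGs with replicate D, while Hspa4 after 6 h at 40 °C no longer had an adjusted p under 0.05 (adjusted p = 0.137).

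**Figure D3:**
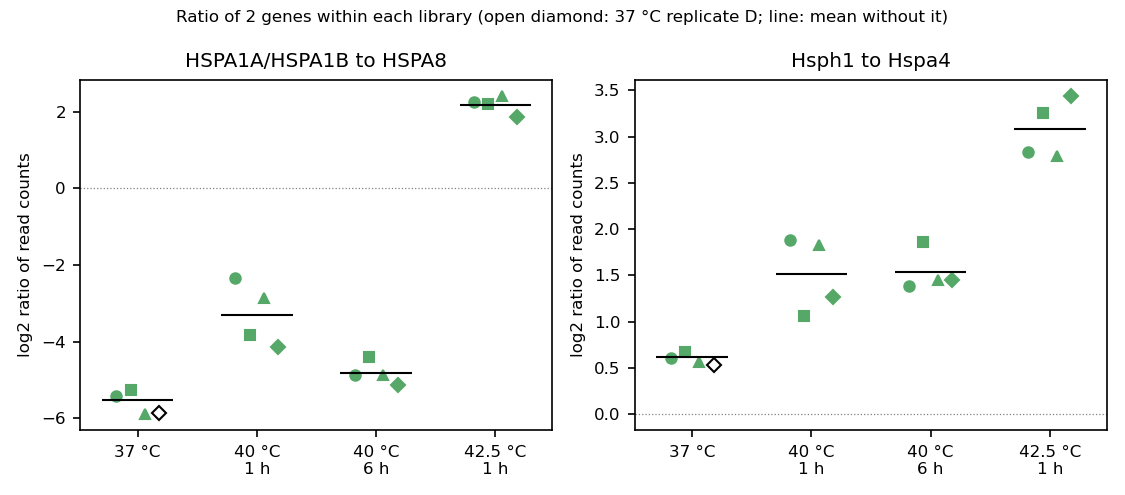
Log2 ratio of the read counts of HSPA1A/HSPA1B to HSPA8 (left) and of Hsph1 to Hspa4 (right) in each library, by group, with bars for means without 37 °C replicate D (open diamond). The left ratio was above 0 only in the 4 libraries at 42.5 °C, and the right ratio was above the control libraries in all 12 heated libraries.

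Ratios of counts within a library do not depend on its depth. They compare groups for a pair of genes and not the genes themselves, since no lengths for this genome build were used and counts grow with transcript length. The log2 ratio of HSPA1A/HSPA1B to HSPA8 was -5.43, -5.27 and -5.89 in the 3 controls. It was -2.35, -3.83, -2.86 and -4.15 in replicates A to D after 1 h at 40 °C and -4.88, -4.41, -4.86 and -5.14 after 6 h at 40 °C. At 42.5 °C it was 2.24, 2.21, 2.41 and 1.86. Hence HSPA1A/HSPA1B had at most 0.196 counts for each count of HSPA8 at 40 °C and between 3.62 and 5.31 at 42.5 °C, and the groups at 40 °C did not overlap in this ratio. The size and sign of this ratio rest on the gene taken as HSPA8. With ENSCGRG00001004990 in its place, chosen after the data were seen, HSPA1A/HSPA1B had 0.461 to 0.686 counts for each count at 42.5 °C, so that the log2 ratio was below 0, and at most 0.0222 at 40 °C.

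For the HSP110 pair, the log2 ratio of Hsph1 to Hspa4 was 0.61 ± 0.06 (SD, n = 3) at 37 °C, 1.51 ± 0.41 (n = 4) after 1 h at 40 °C, 1.53 ± 0.22 after 6 h at 40 °C and 3.08 ± 0.32 at 42.5 °C. The lowest heated library, replicate B after 1 h at 40 °C with 1.06, was above the highest control with 0.67. The ratio at 1 h and at 6 h of 40 °C overlapped, with ranges of 1.06 to 1.88 and 1.38 to 1.86.

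**Figure D4:**
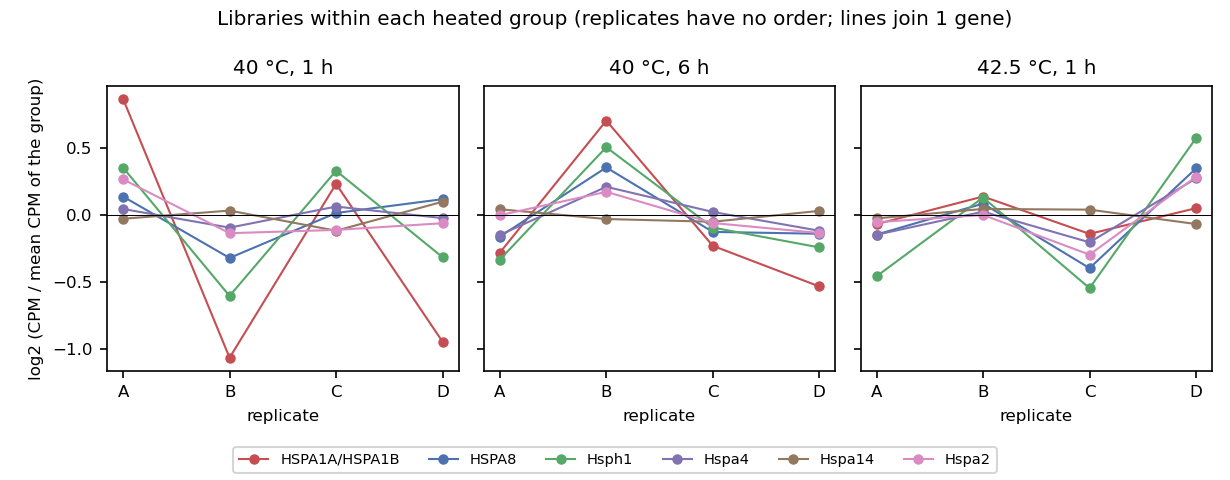
Log2 of each library's CPM over the mean of its heated group, for the 6 tested genes; lines join the values of 1 gene and replicates have no order. Hsph1 and HSPA1A/HSPA1B were highest in replicate A after 1 h at 40 °C and in replicate B after 6 h at 40 °C, and the 5 genes other than Hspa14 were above their mean in replicate D at 42.5 °C.

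Within a heated group several of the genes had their highest level in the same library. After 1 h at 40 °C, HSPA1A/HSPA1B, HSPA8, Hsph1 and Hspa2 were highest in replicate A. After 6 h at 40 °C, HSPA1A/HSPA1B, HSPA8, Hsph1, Hspa4 and Hspa2 were highest in replicate B, and at 42.5 °C the last 4 of these were highest in replicate D, whereas HSPA1A/HSPA1B was highest in replicate B. Hspa14 was highest in replicate D, A and B of these groups, in that order. Among all genes called higher, the chaperones included, replicate A was highest for 14 of 29 after 1 h at 40 °C. Replicate B was highest for 101 of 152 after 6 h at 40 °C and replicate D for 178 of 296 at 42.5 °C. Over all tested genes these shares were 24.9%, 26.3% and 29.4%. The same 3 libraries had the largest total counts of their groups (14668365, 12700249 and 13202441), and the part of depth in these differences was not tested.

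The partners of HSP70 were taken as lists of J-domain proteins, other exchange factors, and proteins that bind the HSP70 tail or relay clients to HSP90. Further lists held HSP70 relatives and exchange factors of other compartments, heat shock factors and other heat shock chaperones. Of 14 J-domain genes found, 13 were tested. Of these, 1 was a DEG after 1 h at 40 °C, 3 after 6 h at 40 °C and 3 at 42.5 °C, all higher. Of all tested genes 0.276%, 1.45% and 2.83% were called higher in these comparisons, shares that also stand beside the lists below. Dnajb1, the main heat-inducible partner of HSPA1A, was at 26.3 to 30.2 CPM at 37 °C and rose by 1.63 (SE 0.25, adjusted p = 0.00334), 0.65 (SE 0.10, adjusted p = 0.000112) and 3.79 (SE 0.21, adjusted p = 4.75e-09). The call after 6 h at 40 °C was lost without replicate B of that group, where the value was 0.54, and in 1 fit over all groups (adjusted p = 0.0928). Dnaja1 rose by 0.74 after 6 h at 40 °C (adjusted p = 4.48e-06) and by 0.94 at 42.5 °C (adjusted p = 4.43e-06), Dnajb14, from low counts, by 0.70 after 6 h at 40 °C (adjusted p = 0.0145) and Dnajb4 by 0.88 at 42.5 °C (adjusted p = 7.87e-05). Dnajb14 was no longer a DEG without 37 °C replicate A or B, with 37 °C replicate D included (adjusted p = 0.0735) or by the Wald test of DESeq2 (adjusted p = 0.0741). The median of the J-domain list was 0.04, 0.13 and 0.10, beside values within 0.01 of 0 for all tested genes.

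Among 7 other exchange factors, all tested, Bag3 was the only DEG in the 3 comparisons with 37 °C. Bag3 joins HSP70 to small heat shock proteins and to autophagy. It was at 80.8 to 93.9 CPM at 37 °C and 112 to 208 CPM after 1 h at 40 °C (0.86, SE 0.17, adjusted p = 0.0157). The call of Bag3 was lost without any 1 of the 3 controls and without replicate C of 1 h at 40 °C. It was also lost by the Wald test of DESeq2 (adjusted p = 0.0653). After 6 h at 40 °C the 4 libraries lay between 96.2 and 97.3 CPM of Bag3 (0.14, adjusted p = 0.0676), and at 42.5 °C between 449 and 816 CPM (2.75, SE 0.16, adjusted p = 1.01e-08). Bag1 and the exchange factor Hspbp1 had log2 differences of 0.00 and -0.08 at 42.5 °C (adjusted p = 1 and 0.236).

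Of 7 tested genes for tail binding and relay to HSP90, Stip1 was a DEG after 6 h at 40 °C (0.76, SE 0.09, adjusted p = 1.78e-05). Stip1 (HOP) hands clients from HSP70 to HSP90. None of the 7 was a DEG after 1 h at 40 °C or at 42.5 °C. Hsp90aa1, St13, Ttc1 and Sugt1 of this list were not found by name, so their response is not known here. Hsp90ab1 was 0.49 higher after 6 h at 40 °C (adjusted p = 2.97e-05), and the ubiquitin ligase Stub1 (CHIP) differed by -0.07 there (adjusted p = 0.273). Among HSP70 relatives and exchange factors of other compartments 5 genes were tested, and Hspa9 was not found by name. The ER chaperone Hspa5 (BiP) was the only DEG of these 5, after 6 h at 40 °C (1.13, SE 0.10, adjusted p = 1.6e-06). Hyou1, the HSP110 relative of the ER, was 0.50 higher there (adjusted p = 2.32e-05).

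None of the tested heat shock factors and Hsbp1, 4 genes at 40 °C and 3 at 42.5 °C, was a DEG against 37 °C. Hsf1, whose protein is activated by heat without new synthesis, had log2 differences of 0.04 (adjusted p = 0.713), 0.11 (adjusted p = 0.121) and -0.14 (adjusted p = 0.021). Hsf4 was at 0.971 to 1.34 CPM after 6 h at 40 °C and at 0.194 to 0.394 CPM at 42.5 °C, around the floor. It passed the filter in that comparison and not in those of 42.5 °C with the other groups, so its fold change is not given. Of 9 tested other heat shock chaperones, 2 were DEGs after 1 h at 40 °C (Hspb1 and Zfand2a), 2 after 6 h at 40 °C (Hspb1 and Ahsa2) and 6 at 42.5 °C, all higher. The 6 were Zfand2a, a zinc finger protein that joins the proteasome under stress (4.32, SE 0.24), the small heat shock proteins Hspb1 (2.98, SE 0.20) and Hspb8 (1.32, SE 0.12), the HSP90 cochaperone Chordc1 (0.61, SE 0.08), Cacybp (0.71, SE 0.08) and the mitochondrial chaperonin HSPD1 (0.70, SE 0.09). Chordc1 was no longer a DEG without 37 °C replicate B, without 42.5 °C replicate D or with 37 °C replicate D included (0.58). With 37 °C replicate D included, Dnajb1, Bag3, Hspb1 and Zfand2a were no longer DEGs after 1 h at 40 °C (adjusted p = 0.114, 0.269, 0.408 and 0.127).

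**Figure D5:**
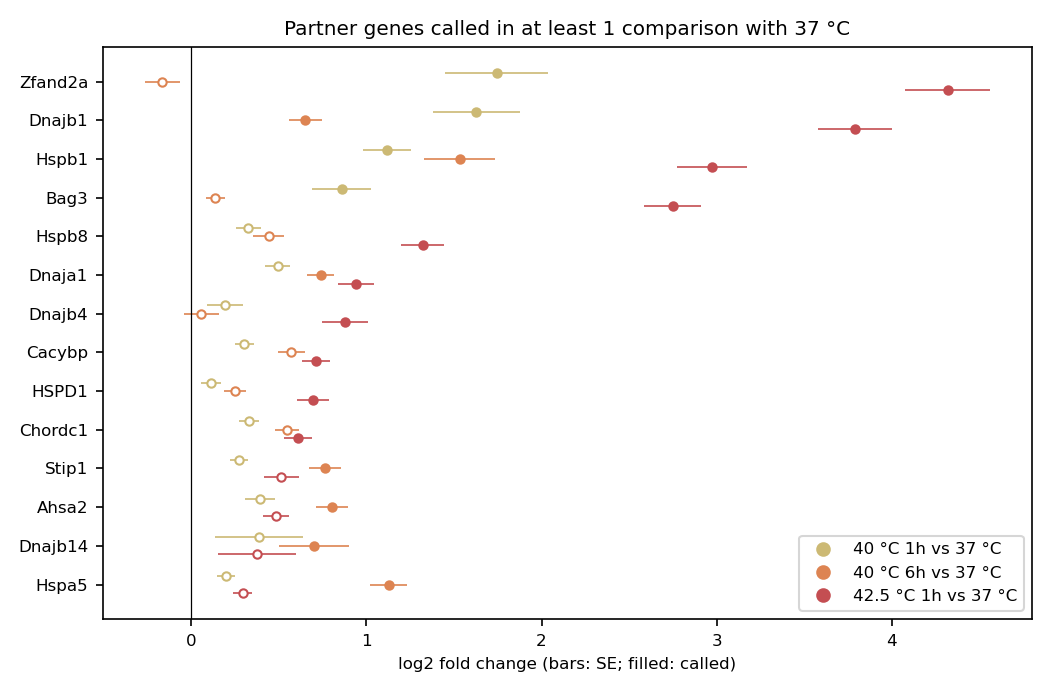
Log2 fold change against 37 °C, with bars of 1 SE, for the partner genes that were DEGs in at least 1 of the 3 comparisons with 37 °C; filled circles are DEGs. Dnajb1, Bag3 and Zfand2a were higher after 1 h at 40 °C than after 6 h at 40 °C and highest at 42.5 °C, while Stip1, Ahsa2 and Hspa5 had their highest value after 6 h at 40 °C.

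Between 6 h and 1 h at 40 °C, Dnajb1 fell by 0.97 (adjusted p = 0.00453), Bag3 fell by 0.72 (adjusted p = 0.00299) and Zfand2a fell by 1.90 (adjusted p = 0.000193), and Bag3 was no longer a DEG without replicate A of 1 h at 40 °C. Hspa5 rose by 0.93 (adjusted p = 2.15e-05). Against 1 h at 40 °C, the DEGs at 42.5 °C were Dnajb1 (2.16), Dnajb4 (0.68), Bag3 (1.89), Hspb1 (1.86), Hspb8 (1.00), HSPD1 (0.59) and Zfand2a (2.58), all higher. The calls of Dnajb4 and HSPD1 were lost without 42.5 °C replicate D, and that of HSPD1 also without replicate B of 42.5 °C, without replicate B of 1 h at 40 °C and with no filter (0.58). Against 6 h at 40 °C they were Dnajb1 (3.14), Dnajb4 (0.82), Bag3 (2.61), Hspb1 (1.44), Hspb8 (0.88) and Zfand2a (4.48), all higher, and Hspa5 (-0.83).

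The genes whose levels followed the responding members most closely over the 15 libraries are given as a description, since the libraries share their groups. For HSPA1A/HSPA1B they were Dnajb1 (Pearson's r = 0.975), Zfp654 (0.97), 1810013L24Rik (0.969), Smurf2 (0.966) and Bag3 (0.966). For Hsph1 they were Hspb8 (0.987), Dusp16 (0.982), Zfp715 (0.976), Hspb1 (0.975) and RNF168 (0.973). For HSPA8, after ENSCGRG00001004990, they were ENSCGRG00001010711 (0.984), Fchsd2 (0.96), Ahsa1 (0.954) and P4ha1 (0.951). Among the members, r was 0.952 between HSPA1A/HSPA1B and Hsph1, 0.693 between HSPA8 and Hsph1 and 0.507 between HSPA1A/HSPA1B and HSPA8. The 5 genes nearest to HSPA1A/HSPA1B did not move to the same extent, as Smurf2 was 0.32 higher at 42.5 °C and Dnajb1 3.79 higher.

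The nearest protein-coding genes of the members, 2 on each side as RefSeq orders them on CriGri-PICRH-1.0, were also followed, an assembly used for gene order only. Of 28 neighbours 22 were found by symbol and 17 were tested. None was a DEG after 1 h at 40 °C. Clmp, beside the RefSeq gene Hspa8, was the only DEG after 6 h at 40 °C and was lower (-0.74, adjusted p = 0.00684). Zbtb1, beside Hspa2, was the only DEG at 42.5 °C and was higher (0.68, adjusted p = 2.47e-06). Of all tested genes 1.66% were called lower after 6 h at 40 °C and 2.83% higher at 42.5 °C. Whether ENSCGRG00001018983 lies at the place of the RefSeq gene Hspa8 was not settled. Around Hspa1a, Neu1 and Lsm2 differed by -0.24 (adjusted p = 0.0173) and -0.04 (adjusted p = 0.797) at 42.5 °C.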

How the data were processed

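RNA of 16 CHO cultures was prepared with a TruSeq kit and sequenced as paired reads. In CLC Genomics Workbench the authors trimmed the reads, aligned them against the CHOK1GS_HDv1 genome and counted them per gene, and they deposited whole-number read counts without normalization. The labels' processing notes name bcl2fastq. The annotation release, the strand setting and the treatment of reads with several mapping places are not given in the sources used here.

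Each pair of groups was fitted by itself with the quasi-likelihood test of edgeR 4.0.16 (R 4.3.3), after filterByExpr and TMM normalization, with Benjamini-Hochberg adjustment over all tested genes. Adjusted p values come from this test unless another is named. The SE is the log2 fold change over the square root of F. Levels are CPM scaled by TMM over 16 libraries. The 37 °C replicate D was left out, as the study did. Replicate pairs within a group differed by a chi-square of 2.55 to 8.02 per degree of freedom, so no library was counted more than once. The floor was fixed at 3 counts, and the sequencing depth of 10504192 to 14668365 counts, scaled by TMM, sets its value in CPM. Ratios used counts plus 0.5, and similarity used log2 CPM with a prior count of 2. The test was checked on counts simulated for 1 h at 40 °C against 37 °C, with the same biological coefficient of variation for every gene. That check does not cover genes as variable as HSPA1A/HSPA1B, whose coefficient of variation was 63.9% after 1 h at 40 °C.

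The members, the partner lists and the alternatives were chosen with earlier results of these data known. The genes named are all 7 members in every comparison, the partner genes that were DEGs in at least 1 comparison with Hsf1 added, and the 5 genes most similar to each member called against 37 °C. Bag1, Hspbp1, Hsp90ab1, Stub1, Hyou1 and the neighbouring genes were named after their values had been seen. The alternatives were the Wald test of DESeq2 1.42.0 and its size factors, no filter, a stricter filter (10 or more counts in each library), all 4 controls, a replicate block by letter, 1 fit of all groups together, and fits that leave out 1 library at a time. For the ratios a pseudocount of 1 count and, after the data were seen, ENSCGRG00001004990 as HSPA8 were tried. Sequences and promoter motifs were not analysed here.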

Additional observations from a re-analysis of the deposited data

Results flagged for a closer look

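Within groups of 4 libraries, the gap of the outermost library to the next over the range of the group was compared with Dixon's 95% critical value, which chance passes in about 1 of 20 groups. Replicate B of 6 h at 40 °C stood above the other libraries in HSPA1A/HSPA1B (27.2 CPM) and in HSPA8 (577 CPM), and replicate A of 1 h at 40 °C stood above the others in Hspa2 (69.7 CPM). At 37 °C replicate C stood below the others in HSPA1A/HSPA1B (2.59 CPM). For Hspa4l the marked libraries were 37 °C replicate C (0.172 CPM) and replicate D of 6 h at 40 °C (0.156 CPM), each from 2 counts where the other libraries had 0.

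The left-out 37 °C replicate D was above the 3 other control libraries in HSPA8 (223 CPM), Hsph1 (340 CPM), Hspa4 (236 CPM) and Hspa14 (107 CPM), and in Hspa14 its gap also passed Dixon's value. In HSPA1A/HSPA1B, with 3.83 CPM, and in Hspa2, with 51.2 CPM, it lay among them.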

How the results depend on the processing

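With all 4 control libraries, 0 of the 7 genes and 3 of all tested genes were called after 1 h at 40 °C, in place of 3 and 35, and in that fit the biological coefficient of variation was 0.11 in place of 0.049. Between 6 h and 1 h at 40 °C, 2 of the genes were called in place of 1 with no filter and with 1 fit over all groups, HSPA1A/HSPA1B being the added one. With no filter, Hspa4l also met both thresholds between 42.5 °C and 6 h at 40 °C (adjusted p = 0.0233). That call rests on 1 to 5 counts per library against 0 to 2. With each library left out in turn, 3 genes were called after 1 h at 40 °C and after 6 h at 40 °C, 3 to 4 at 42.5 °C, 1 to 2 between 6 h and 1 h at 40 °C, 2 to 3 between 42.5 and 40 °C at 1 h and 2 between 42.5 °C and 6 h at 40 °C. All tested genes called after 1 h at 40 °C then ranged from 23, without replicate C of 1 h at 40 °C, to 56, without replicate B of that group. Log2 differences near 0 changed sign for Hspa14 after 1 h at 40 °C (-0.0411 to 0.0317 over the libraries left out) and between 42.5 °C and 6 h at 40 °C (-0.009 to 0.0316, and -0.0006 with no filter), for Hsph1 between 6 h and 1 h at 40 °C (-0.0804 to 0.2815) and for Hspa2 between 42.5 °C and 6 h at 40 °C (-0.0171 to 0.1794). Of 504 fold changes of members under all alternatives, 482 kept their direction and their call. So did 655 of 685 fold changes of partner genes, ENSCGRG00001004990 and ENSCGRG00001010711, taken only in comparisons where the gene was a DEG. Named genes outside these, such as Bag1 and Smurf2, were not followed under the alternatives. Of 64 mean ratios 60 moved by less than 1 SD. Leaving out 1 library cannot move a mean by 1 SD, so those fits could not show otherwise. The 4 ratios that moved further were those with ENSCGRG00001004990 in place of HSPA8, an alternative chosen after seeing the data. The letters A to D come from the labels only. Libraries of the same letter correlated with each other, after subtracting group means, by -0.05 to 0.18. Not every pair was over 0.1 in any comparison, so they were not treated as pairs. Their mean correlation was nevertheless above that of libraries with different letters in every comparison, most for 1 h at 40 °C against 37 °C (0.14 against -0.05). With the replicate block 3, 3 and 3 members were called in the comparisons with 37 °C, and 48, 333 and 717 of all tested genes in place of 35, 326 and 786. Of the named partners, Chordc1 at 42.5 °C (0.52) and HSPD1 between 42.5 and 40 °C at 1 h (0.57) fell short of 1.5-fold with the block. The causes of these differences were not tested. Depth limits the detection of Hspa4l, with at most 5 counts in any library. It limits the precision of the HSPA1A/HSPA1B controls, which had 30 to 57 counts, above the floor of 3 counts.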
